A study of Homo sapiens with 2 samples.

Results

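The genes examined here make cholesterol and fatty acids or control how much of both is made. The list held 31 genes: the enzymes of the mevalonate and sterol pathways, the SREBP transcription factors with their regulators, genes of intracellular sterol transport, and enzymes of fatty acid synthesis. They were chosen by known function, with earlier results of these data known. Of the 31 listed genes, 30 were matched by Ensembl identifier to the 57736 genes of the count table, and each of the 30 was among the 13149 genes with 100 or more reads when the libraries were added, called expressed genes below. ACACA matched no identifier and was not analysed here.

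RNA-Seq was performed in A1847 cells, a human epithelial ovarian cancer cell line with high CARM1 expression. CARM1 is an arginine methyltransferase that acts on histones and on other chromatin proteins. The parental control was CARM1 wild type, and the CARM1 KO cells were a clone made with CRISPR and a guide RNA against CARM1. Both were grown in the same RPMI medium with fetal bovine serum. There was 1 library per condition, with 30741953 reads counted in parental and 32300391 in CARM1 KO cells, so no difference below has a replicate check, and a clone and the loss of CARM1 cannot be told apart. Libraries were made from total RNA with the ScriptSeq Gold kit. In such bulk RNA, fewer cells with a transcript and less RNA per cell cannot be told apart. Intervals in parentheses are exact 95% binomial intervals, which cover counting error only.

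The targeted gene, CARM1, had 975 reads in parental cells against 380 in the CARM1 KO clone and was 2.63-fold lower in the latter (95% interval 2.33 to 2.97). Of the markers examined for cell type, the epithelial keratins KRT8 and KRT18 were abundant in both libraries, with at least 17600 reads each. EPCAM was 3.33-fold higher in CARM1 KO cells, and KRT19 had 45 reads in parental cells against 0 in the clone. The endothelial marker PECAM1 was not analysed here. The Müllerian factor PAX8 had 311 reads in parental cells against 1149 in the CARM1 KO clone, and MSLN had 201 and 1188. The ovarian markers MUC16 and WT1 were at or near 0, with at most 8 reads in a library, and CDH1 had 3 reads in parental cells against 53 in the CARM1 KO clone. Of the fibroblast markers, COL1A1 had 131 and 537 reads, while LUM had 61 reads in parental cells against 1 in the CARM1 KO clone, and DCN had 24 and 0. The leukocyte gene PTPRC had 6 and 0 reads. Of the 5 epithelial markers, 4 were higher in CARM1 KO cells, and their part in the results below was not tested.

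Cholesterol is made from acetyl-CoA. The mevalonate pathway builds isoprenoid units, which are joined to squalene, closed to the ring of lanosterol and then trimmed to cholesterol. The transcription factors SREBP1 and SREBP2, encoded by SREBF1 and SREBF2, are held in the endoplasmic reticulum with their escort SCAP. When sterols are plentiful, INSIG proteins retain SCAP there. When sterols are low, SCAP carries the SREBPs to the Golgi, where they are cut and released to the nucleus. SREBP2 is known mainly for the sterol genes and SREBP1 for the fatty acid genes.

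Most of the listed genes were lower in CARM1 KO cells, the majority by less than 3-fold. Of the 30 genes, 24 lay below the parental level, while 49.5% of all expressed genes did so. The median log2 fold change of the 30 genes was -0.40, beside 0.01 over all expressed genes. More than 1.5-fold lower were 12 of the 30 genes, or 40.0%, beside 23.8% of all genes, and 2 genes were more than 1.5-fold higher, or 6.67%, beside 26.4%. The study required a fold above 3 and an FDR under 0.05, and only the fold is applied here. Past 3-fold, 5 of the 30 genes were lower, or 16.7%, beside 7.33% of all genes, and 1 gene was higher, or 3.33%, beside 10.4%. The 5 lower genes were SC5D, SCD, FASN, STARD4 and SREBF1, and the higher gene was INSIG2. Within 1.5-fold in either direction lay 16 of the 30 genes. Outside these limits lay 26.4% of all expressed genes on the higher side and 23.8% on the lower, so the share within was similar. Added together, the 30 genes held 2051 CPM (counts relative to the scaled library total) in parental and 1325 CPM in CARM1 KO cells, which was 1.55-fold lower. Without SCD, which made up 41.5% of this difference, the sum was 1.34-fold lower.

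**Figure D1:**
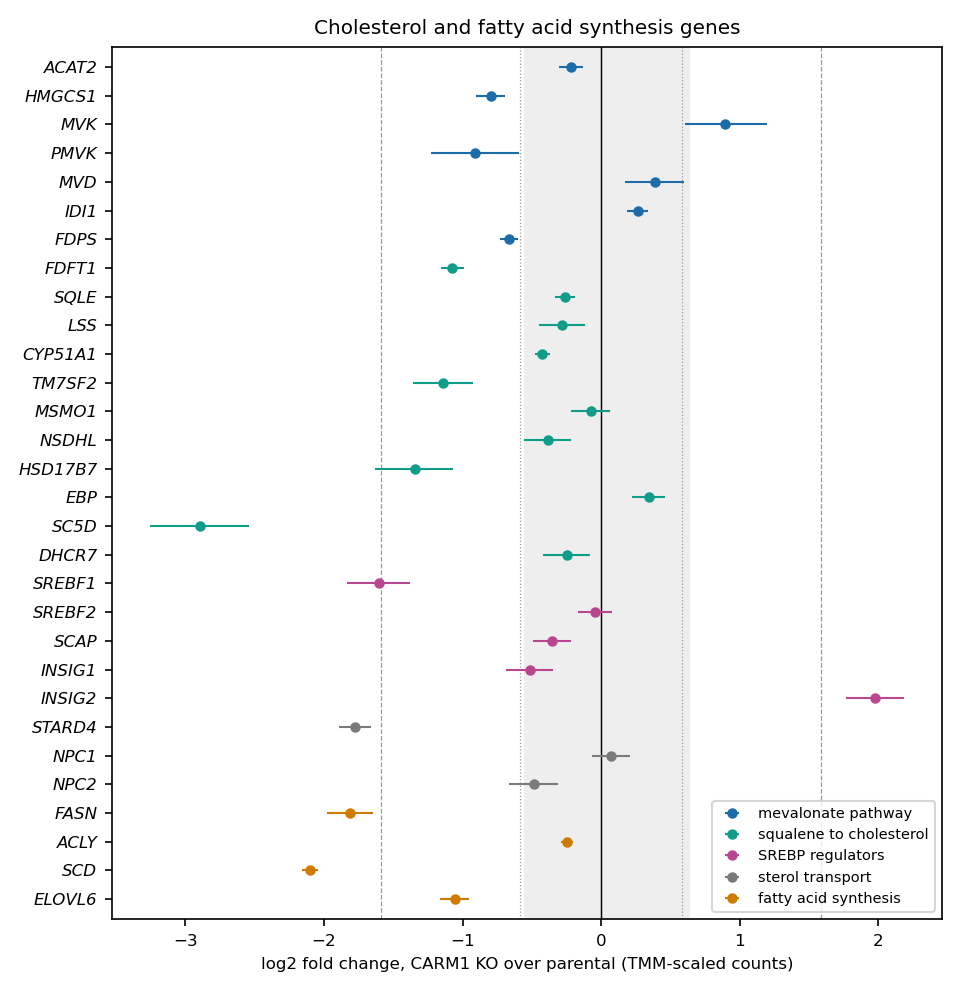
Log2 fold change of CARM1 KO over parental cells for the 30 genes, in pathway order and colored by role. Points are TMM-scaled ratios of 1 library each and bars are exact 95% binomial intervals. The shaded band runs from the first to the third quartile of all expressed genes, dotted lines mark 1.5-fold and dashed lines 3-fold. On the left, 5 genes lie beyond 3-fold, while INSIG2 is the only gene beyond it on the right.

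**Figure D2:**
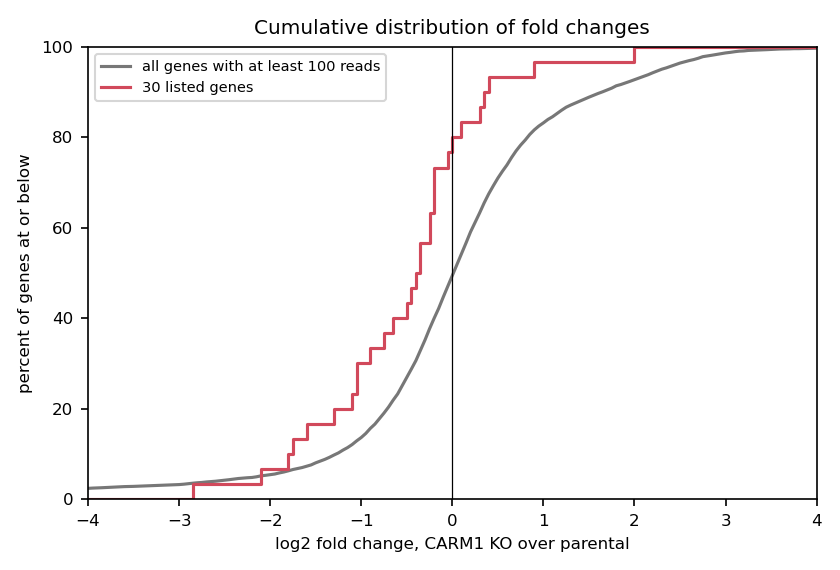
Percent of genes at or below each log2 fold change (x axis) for the 30 listed genes and for the 13149 expressed genes. The curve of the listed genes lies to the left of that of all genes over most of the range, with medians of -0.40 and 0.01.

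Promoters are shown for STARD4, SCD, SC5D and INSIG2, which differed more than 3-fold, and for SREBF2, which holds the sterol regulatory core. A RefSeq promoter, from 250 bases before to 50 bases after an annotated start in GRCh38.p14, was found for 26 of the 30 genes, and some genes had several. The table held none for ACAT2, FDFT1, SQLE and FASN. Both strands were searched for TCACNCCAC, the core of the sterol regulatory element that SREBPs bind, for the E-box CACGTG, for CCAAT, the letters bound by NF-Y, and for GGGCGG, bound by Sp1. Different motifs do not overlap in the promoters printed here. The CCAAT letters were present for 19 of the 26 genes, or 73.1%, beside 39.7% of all genes in the promoter table and 42.1% of its protein-coding genes. GGGCGG was present for 25 of the 26 genes, or 96.2%, beside 48.3% of all genes and 64.3% of protein-coding genes. CACGTG was present for 4 genes, or 15.4%, beside 8.77% of all genes and 10.9% of protein-coding genes. TCACNCCAC was present for SREBF2 alone, while 1.39% of all genes and 1.51% of protein-coding genes held it. Of the 10 genes with a promoter in the table and a level more than 1.5-fold lower in CARM1 KO cells, 7 held CCAAT. This share was near the 73.1% over all 26 genes, so the lower genes did not stand out. These counts describe letters in a short window and do not show binding. All 26 genes are expressed, while the comparison shares were taken without regard to expression, and shares over expressed genes were not computed. The 250 bases before the start are printed 5′ to 3′ on the strand of the gene, with TCACNCCAC, CACGTG and CCAAT in capitals, also where they lie on the other strand. SREBF2 lies at chr22:41832855-41833104 on the plus strand, STARD4 at chr5:111512536-111512785 on the minus strand, SCD at chr10:100346983-100347232 on the plus strand, SC5D at chr11:121292521-121292770 on the plus strand and INSIG2 at chr2:118088221-118088470 on the plus strand.
SREBF2: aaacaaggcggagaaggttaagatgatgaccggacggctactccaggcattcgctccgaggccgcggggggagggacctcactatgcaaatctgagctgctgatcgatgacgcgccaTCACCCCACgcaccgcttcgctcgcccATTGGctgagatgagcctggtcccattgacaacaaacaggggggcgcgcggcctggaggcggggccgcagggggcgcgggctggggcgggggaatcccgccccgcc
STARD4: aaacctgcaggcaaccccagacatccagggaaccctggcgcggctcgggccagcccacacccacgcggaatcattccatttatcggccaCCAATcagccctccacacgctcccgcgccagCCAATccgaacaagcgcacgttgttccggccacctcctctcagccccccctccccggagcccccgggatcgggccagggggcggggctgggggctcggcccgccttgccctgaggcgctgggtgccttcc
SCD: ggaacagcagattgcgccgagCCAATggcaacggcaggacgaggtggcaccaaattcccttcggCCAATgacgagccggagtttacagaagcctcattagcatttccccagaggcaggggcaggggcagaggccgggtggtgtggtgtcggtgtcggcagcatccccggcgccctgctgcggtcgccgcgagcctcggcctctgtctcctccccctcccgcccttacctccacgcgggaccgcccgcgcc
SC5D: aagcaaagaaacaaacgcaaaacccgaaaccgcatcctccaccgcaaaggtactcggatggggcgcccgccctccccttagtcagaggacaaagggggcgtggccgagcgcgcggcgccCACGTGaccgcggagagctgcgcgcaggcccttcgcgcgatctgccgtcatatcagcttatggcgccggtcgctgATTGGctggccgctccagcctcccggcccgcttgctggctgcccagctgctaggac
INSIG2: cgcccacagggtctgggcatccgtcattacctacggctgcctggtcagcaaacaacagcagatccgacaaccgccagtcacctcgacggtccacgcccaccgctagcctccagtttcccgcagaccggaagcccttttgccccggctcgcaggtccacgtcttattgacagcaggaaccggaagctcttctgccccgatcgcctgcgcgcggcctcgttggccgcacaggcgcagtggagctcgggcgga
In SREBF2, the sterol regulatory core begins 133 bases before the start and a CCAAT on the other strand begins 106 bases before it. STARD4 and SCD each hold a pair of CCAAT motifs, SC5D holds an E-box and a CCAAT on the other strand, and INSIG2 holds none of the 3 marked motifs. The promoter of SREBF1, which was also more than 3-fold lower, is not printed and likewise holds none of the 3.

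The enzymes of the mevalonate pathway did not differ in a single direction. Of the 7 measured, 3 or 42.9% were more than 1.5-fold lower in CARM1 KO cells, beside 23.8% of all expressed genes, and 1 or 14.3% was more than 1.5-fold higher, beside 26.4%. Their median log2 fold change was -0.22. ACAT2, which joins acetyl-CoA units in the cytosol, had 2440 reads in parental cells against 2150 in the CARM1 KO clone, 1.16-fold lower. HMGCS1, which makes HMG-CoA, had 2023 and 1193 reads and was 1.74-fold lower (95% interval 1.62 to 1.87). The mevalonate kinases differed in direction. MVK, which adds the first phosphate, had 147 reads in parental cells against 280 in the CARM1 KO clone, a 1.86-fold higher level (95% interval 1.52 to 2.29). PMVK, which adds the next, had 238 and 130 reads and was 1.87-fold lower (95% interval 1.51 to 2.34). MVK and PMVK had the fewest reads of the 7, and their intervals were the widest. MVD, the decarboxylase that yields isopentenyl pyrophosphate, was 1.31-fold higher, with 323 and 432 reads. IDI1, the isomerase of that product, was 1.20-fold higher, with 2544 and 3127 reads. FDPS, which builds farnesyl pyrophosphate for sterols and for protein prenylation, had 4779 and 3088 reads and was 1.59-fold lower (95% interval 1.51 to 1.66).

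From squalene to cholesterol, 10 of 11 enzymes were below the parental level, while 49.5% of all expressed genes were. These 10 include MSMO1, whose interval held a ratio of 1. More than 1.5-fold lower were 4 or 36.4%, beside 23.8% of all expressed genes, and the median log2 fold change was -0.38. SC5D, the sterol C5-desaturase of the late pathway, differed most of all 30 genes. It had 551 reads in parental cells against 76 in the CARM1 KO clone and was 7.42-fold lower (95% interval 5.83 to 9.56). SC5D (ENSG00000109929) lies at chr11:121163390-121184119 in GRCh37, plus strand. Its neighbors in the pathway did not share this difference. EBP, the isomerase that precedes it, had 1014 reads in parental cells against 1317 in the CARM1 KO clone, 1.27-fold higher (95% interval 1.17 to 1.38). DHCR7, which reduces the product of SC5D, had 615 and 530 reads and was 1.19-fold lower (95% interval 1.06 to 1.34).

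A further 3 enzymes of this arm were between 2-fold and 3-fold lower. Of all expressed genes, 13.6% were at least 2-fold lower and 7.33% more than 3-fold lower. FDFT1, the squalene synthase that commits farnesyl pyrophosphate to sterols, had 3394 reads in parental cells against 1652 in the CARM1 KO clone, 2.10-fold lower (95% interval 1.98 to 2.23). TM7SF2, a sterol C14-reductase, had 559 and 260 reads and was 2.20-fold lower (95% interval 1.90 to 2.56). HSD17B7, the 3-keto-reductase of sterol C4-demethylation, had 370 and 149 reads and was 2.54-fold lower (95% interval 2.10 to 3.10). The remaining enzymes lay within 1.5-fold. The epoxidase SQLE, at which oxygen enters the pathway, had 3394 and 2903 reads and was 1.20-fold lower. The cyclase LSS was 1.22-fold lower, with 646 and 544 reads, and the lanosterol demethylase CYP51A1 was 1.34-fold lower, with 6461 and 4926 reads. NSDHL, which acts beside HSD17B7 in C4-demethylation, had 650 and 510 reads and was 1.31-fold lower. MSMO1, the C4-methyl oxidase, had 858 and 833 reads, and the interval of its ratio of CARM1 KO to parental, 0.861 to 1.04, held 1. Summed over the 18 enzymes of both arms, the counts were 995.7 CPM in parental and 755.8 CPM in CARM1 KO cells, 1.32-fold lower.

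Among the regulators, related genes differed unequally. SREBF1 (ENSG00000072310), at chr17:17713713-17740316 in GRCh37 (minus strand), had 627 reads in parental cells against 211 in the CARM1 KO clone. It was 3.04-fold lower (95% interval 2.60 to 3.57), and 2.97-fold lower, under the 3-fold threshold, when scaled by DESeq2 size factors. SREBF2 had 1100 and 1090 reads, and the interval of its ratio, 0.889 to 1.05, held 1. Part of the SREBF1 exons, 556 bp or 6.75% of their length, is shared with RAI1 on the opposite strand, which had 446 reads in parental cells against 159 in the CARM1 KO clone. Whether strand was used in counting is not given in the sources used here, and the part of RAI1 in the SREBF1 difference was not tested. Per exon length, SREBF1 made up 35.8% of the summed SREBF1 and SREBF2 levels in parental cells and 15.9% in CARM1 KO cells.

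INSIG1 and INSIG2, which encode the retention proteins of SCAP, differed in opposite directions. INSIG1, itself a known SREBP target, had 692 reads in parental cells against 496 in the CARM1 KO clone and was 1.43-fold lower (95% interval 1.27 to 1.61). INSIG2 (ENSG00000125629), at chr2:118846028-118868573 in GRCh37 (plus strand), had 236 and 950 reads and was 3.93-fold higher (95% interval 3.41 to 4.55). INSIG2 was the only listed gene more than 3-fold higher. Per exon length, INSIG1 was 3.17 times the level of INSIG2 in parental cells, and INSIG2 was 1.77 times the level of INSIG1 in CARM1 KO cells. The escort gene SCAP lay within 1.5-fold, with 974 and 781 reads, 1.28-fold lower (95% interval 1.16 to 1.41).

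Of the genes for sterol transport, STARD4, a soluble carrier that moves cholesterol between membranes and a known SREBP2 target, differed most. STARD4 (ENSG00000164211), at chr5:110831731-110848288 in GRCh37 (minus strand), had 2668 reads in parental cells against 797 in the CARM1 KO clone, 3.43-fold lower (95% interval 3.17 to 3.71). NPC1 and NPC2 pass cholesterol out of the lysosome. NPC1 had 841 and 904 reads, and the interval of its ratio, 0.955 to 1.16, held 1. NPC2 had 635 and 464 reads and was 1.40-fold lower (95% interval 1.24 to 1.58).

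The fatty acid enzymes had the lowest median of the 5 roles, at a log2 fold change of -1.43 over the 4 genes measured, and 3 of the 4, or 75.0%, were more than 1.5-fold lower, beside 23.8% of all expressed genes. SCD (ENSG00000099194), the desaturase that makes oleic acid from stearic acid, lies at chr10:102106990-102124583 in GRCh37, plus strand. It had 12211 reads in parental cells against 2916 in the CARM1 KO clone, 4.29-fold lower (95% interval 4.12 to 4.47). FASN (ENSG00000169710), the fatty acid synthase, lies at chr17:80036214-80056170 in GRCh37, minus strand. It had 1299 and 379 reads and was 3.51-fold lower (95% interval 3.13 to 3.95). ELOVL6, which lengthens palmitic acid, had 2231 and 1098 reads and was 2.08-fold lower (95% interval 1.93 to 2.24). ACLY, which supplies cytosolic acetyl-CoA to both pathways, was within 1.5-fold, with 9339 and 8074 reads, 1.18-fold lower (95% interval 1.15 to 1.22).

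Levels per length place these differences on a common scale. In RPKM, reads per kilobase of exon relative to the scaled library total, the 30 genes ranged in parental cells from 0.523 for MVK to 74.8 for SCD, with a median of 7.76. In CARM1 KO cells the range was 0.237 for SC5D to 48.6 for ACLY, with a median of 4.57. SCD was the highest of the 30 genes in parental cells and number 8 in CARM1 KO cells, at 17.4, below ACLY, CYP51A1, FDPS, ACAT2, EBP, IDI1 and SQLE. INSIG2 took the opposite course, from place 28 at 1.92 to place 12 at 7.55. SC5D was already low in parental cells, at 1.76, and was the lowest gene in CARM1 KO cells. ACLY and CYP51A1 were among the highest 3 genes in both libraries.

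**Figure D3:**
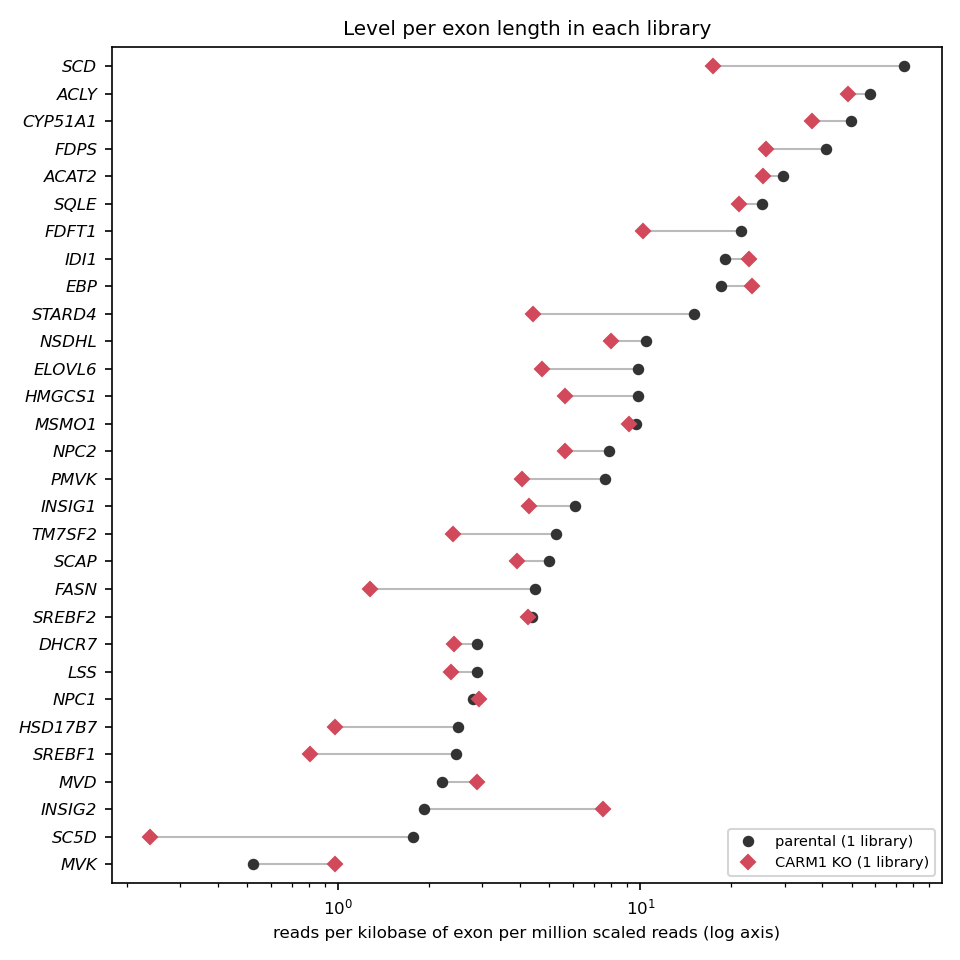
Level of each of the 30 genes in parental (circles) and CARM1 KO cells (diamonds), in RPKM on a log axis, ordered by the parental level. There is 1 library per condition and no error is drawn. The longest lines are those of SC5D, SCD, INSIG2, FASN, STARD4 and SREBF1.

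Differences were also set beside those of the neighboring genes on each chromosome. For each gene, the median log2 fold change of the 10 expressed protein-coding genes on either side was taken, where the chromosome held that many. These medians ranged from -0.66 around FASN to 0.86 around SQLE. Of the 14 genes that differed more than 1.5-fold from parental cells, 10 also lay more than 1.5-fold from their neighbors in the same direction. The same share was not computed over all expressed genes, so this count has no background. The 4 that did not, HMGCS1, MVK, PMVK and FDPS, were the 4 mevalonate enzymes beyond 1.5-fold. PMVK and FDPS lie 369344 bp apart on chromosome 1, and the medians around them were -0.65 and -0.63. The median around HMGCS1 was -0.54 and that around MVK was 0.69. SCD, TM7SF2 and ELOVL6 were lower although the genes around them had medians above 0, at 0.35, 0.24 and 0.30. Around SREBF1 the median was 0.17, but it was -0.13 with 25 genes on either side. SC5D lay at -2.71 relative to its neighbors on the log2 scale, with a neighbor median of -0.18. The genes around INSIG2 were also higher, with a median of 0.82, and INSIG2 lay 1.16 above them. SQLE, within 1.5-fold of parental cells, lay at -1.12 relative to its neighbors. DNA copy number was not measured, and its part in these shifts was not tested.

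**Figure D4:**
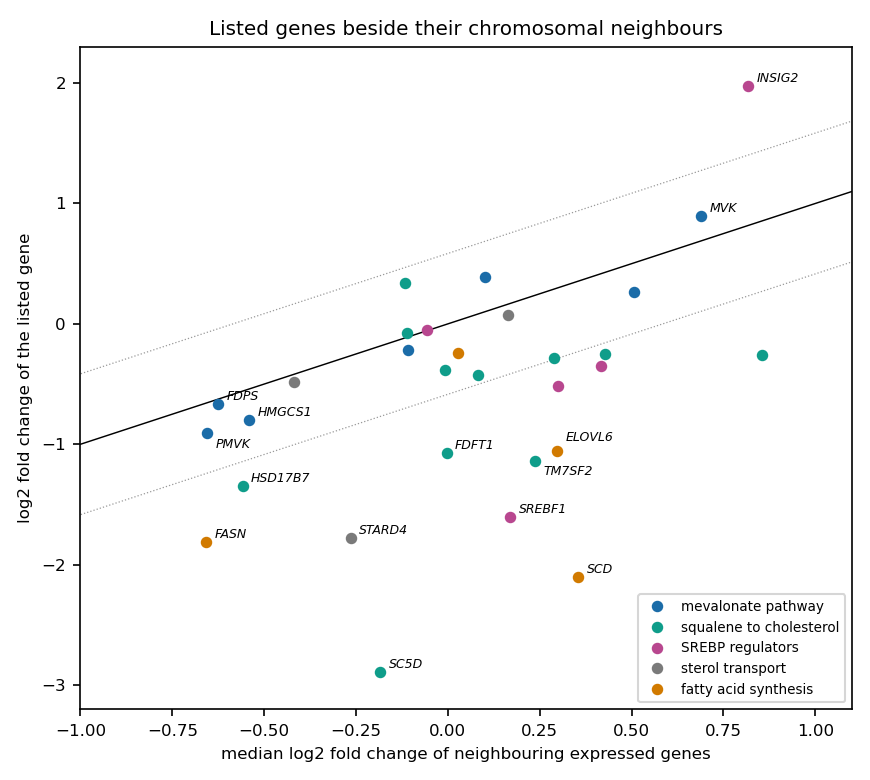
Log2 fold change of each listed gene (y axis) against the median log2 fold change of the nearest 10 expressed protein-coding genes on either side (x axis), colored by role. The solid line marks equal values and dotted lines 1.5-fold above and below it. HMGCS1, PMVK, FDPS and MVK lie between the dotted lines, while SC5D, SCD, SREBF1, STARD4 and FASN lie below and INSIG2 above them.

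Other genes of lipid metabolism, in 5 lists made by known role, lay near the background of all expressed genes. Of their 75 genes, 68 were expressed, and of these 19 or 27.9% were more than 1.5-fold higher, beside 26.4% of all expressed genes, and 14 or 20.6% were more than 1.5-fold lower, beside 23.8%. Their median log2 fold change was 0.09. Among 10 other genes that process SREBPs or sense sterols, 4 or 40.0% were more than 1.5-fold higher, beside 26.4% of all expressed genes, and 2 or 20.0% lower, beside 23.8%, and none passed 3-fold. FBXW7, a ubiquitin ligase subunit that recognizes nuclear SREBPs, had 1901 reads in parental cells against 938 in the CARM1 KO clone, 2.08-fold lower. ERLIN1, which holds SREBP complexes in the endoplasmic reticulum, had 2354 and 4264 reads and was 1.77-fold higher. In the isoprenoid and prenylation branch, 11 of 12 genes lay within 1.5-fold. The other, or 8.33%, was lower, beside 23.8% of all expressed genes, and none was higher, beside 26.4%. The largest differences there were those of PGGT1B, 1.52-fold lower with 1686 and 1139 reads, and NUS1, 1.44-fold lower with 1861 and 1327 reads.

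Of the 12 genes of sterol efflux and esterification, 8 were expressed, of which 2 were more than 3-fold higher and 1 more than 3-fold lower, or 25.0% and 12.5% beside 10.4% and 7.33% of all expressed genes. MYLIP, a ubiquitin ligase and known LXR target, had 78 reads in parental cells against 473 in the CARM1 KO clone, 5.92-fold higher (95% interval 4.65 to 7.63). NCEH1, a cholesteryl ester hydrolase, was 4.04-fold higher, with 754 and 3118 reads. LPCAT3, a lysophospholipid acyltransferase and, like MYLIP, a known LXR target, had 1095 and 260 reads and was 4.31-fold lower (95% interval 3.76 to 4.96). Of 14 genes for intracellular sterol transport, 4 or 28.6% were more than 3-fold higher, beside 10.4% of all expressed genes, and 1 or 7.14% more than 3-fold lower, beside 7.33%. The higher genes were the membrane scaffold gene CAV1 with 2171 and 12169 reads, the actin-binding LIMA1 with 4294 and 19918, the oxysterol-binding relative OSBPL10 with 218 and 1105, and STARD5 with 22 and 94. LIPA, the acid lipase that frees cholesterol in the lysosome, had 2968 and 932 reads and was 3.26-fold lower.

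Among 24 further genes of fatty acid and triglyceride synthesis, 3 or 12.5% were more than 3-fold higher and 2 or 8.33% more than 3-fold lower, near the 10.4% and 7.33% of all expressed genes. FADS2, the delta-6 desaturase of polyunsaturated fatty acids, had 1962 reads in parental cells against 340 in the CARM1 KO clone, 5.91-fold lower (95% interval 5.26 to 6.65). MLYCD, the malonyl-CoA decarboxylase, had 186 and 51 reads and was 3.73-fold lower. The elongases ELOVL7, with 60 and 426 reads, and ELOVL2, with 1225 and 4030 reads, were 6.94-fold and 3.21-fold higher. SCD5, the relative of SCD, had 293 and 1187 reads and was 3.96-fold higher (95% interval 3.48 to 4.51). Per exon length, SCD5 made up 2.89% of the summed SCD and SCD5 levels in parental cells and 33.5% in CARM1 KO cells, while the sum itself was 77.0 and 26.2 RPKM. FADS1, which lies within the span of FADS2 on the opposite strand, had 5999 and 6061 reads, and reads of the pair may not be fully told apart.

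**Figure D5:**
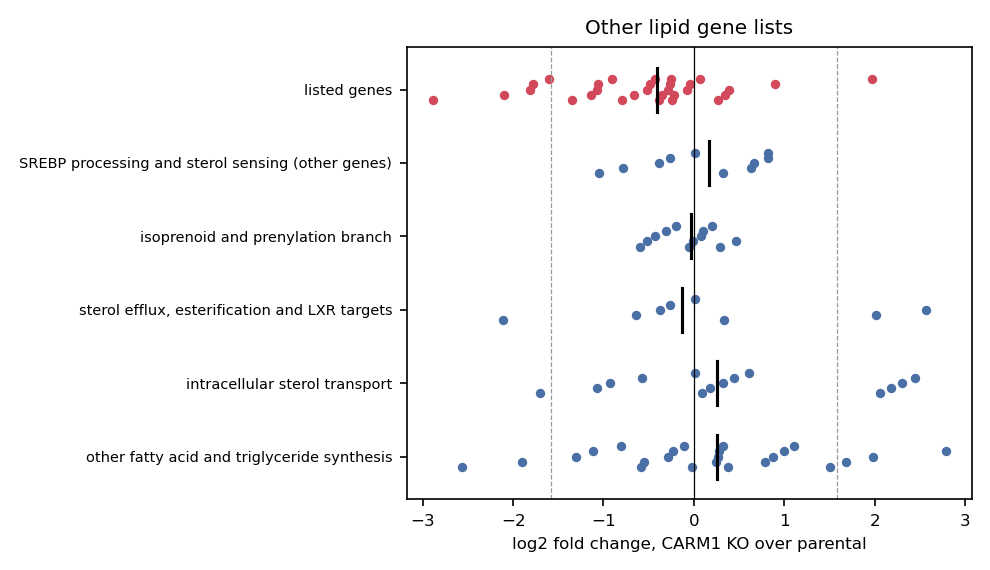
Log2 fold change of CARM1 KO over parental cells for the 30 listed genes (top row) and for 5 further lists of lipid genes, each point an expressed gene, spread vertically only for visibility. Black bars are medians and dashed lines mark 3-fold. The median of the top row is -0.40, and those of the other rows lie between -0.13 and 0.25.

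Some of these counts may hold reads of other genes. The exons of 15 of the 30 genes overlap a further counted gene, which had at least 100 reads for 7 of them, in 6 cases on the opposite strand. Among these 7 genes, the overlap with the largest share of exons was that of ACAT2, where 454 bp or 17.2% of the exon length is shared with TCP1, which had 19758 reads in parental cells against 15841 in the CARM1 KO clone. The annotated pseudogenes named after these genes held few reads. The highest was HSD17B7P2, with 6 reads in parental cells against 32 in the CARM1 KO clone, opposite in direction to HSD17B7.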

How the data were processed

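RNA from 1 library of parental and 1 library of CARM1 KO A1847 cells was sequenced with paired 75 bp reads. The authors aligned reads to hg19 with bowtie2 and used RSEM to estimate raw counts, which were deposited as whole numbers for Ensembl genes. Symbols, positions and exon lengths came from GENCODE lifted to GRCh37, which has the coordinates of hg19. Counts were scaled by TMM in edgeR 4.0.16 under R 4.3.3. With 1 library per group, a quasi-likelihood fit in edgeR has no residual degrees of freedom, so no P value is given and genes are counted past 1.5-fold and past 3-fold among those with 100 or more reads when the libraries were added. Exact binomial intervals were computed with scipy 1.17.1. Levels are RPKM over all annotated exons, with TMM-scaled totals. The steps were tested on simulated data. Named genes are the listed genes, CARM1, the markers of cell type, and from each further list the genes past 3-fold or, where fewer than 2 passed, the 2 that differed most. Genes that overlap a listed gene, pseudogenes, FADS1 and the genes described as neighbors were added beside them. The listed genes and the other lists were chosen with earlier results of these data known. Alternatives were other scalings, read minimums, protein-coding genes only, edgeR's exact test with an assumed coefficient of variation, another gene length and more neighbors.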

Additional observations from a re-analysis of the deposited data

How the results depend on the processing

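Under library size only, DESeq2 1.42.0 size factors and upper-quartile scaling, each of the 30 genes kept its direction, and the median log2 fold change lay between -0.44 and -0.37. Another scaling shifts all genes by a common amount, here from -0.0373 to 0.034 on the log2 scale. This was smaller than the smallest difference, -0.0472 for SREBF2, so the kept directions are no independent check. With at least 1000 reads, 23 of the 30 genes were left. Of these, 7 were more than 1.5-fold lower in place of 12, and 1 higher in place of 2. More than 3-fold lower were 3 genes in place of 5. Among the genes that dropped out were PMVK, TM7SF2, HSD17B7, SC5D and SREBF1, each more than 1.5-fold lower, and MVK, more than 1.5-fold higher. The lower count thus rests in part on genes with fewer reads. At that minimum, 20.1% of all genes were more than 1.5-fold lower, 4.67% more than 3-fold lower and 21.5% more than 1.5-fold higher. With edgeR's exact test at an FDR under 0.05, the 5 lower genes and INSIG2 passed 3-fold at an assumed coefficient of variation of 0.12, while at 0.4 there was 1 lower gene, SC5D, and 0 higher, which follows from the wider spread assumed. Neither value was estimated from these data. The share of all expressed genes that passed at each value is not given here, so these counts have no background. Lengths of the longest transcript gave a median parental level of 9.74 RPKM in place of 7.76. With 25 neighbors on either side, the median difference from neighbors was -0.53 in place of -0.44 on the log2 scale. With 1 library per condition, no library could be left out, and no paired analysis was possible because there were no replicates.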
